A study of Mus musculus with 12 samples.

Results

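The 10 keratins of ductal and basal type were followed in pancreatic tumours of mice whose liver lacks Stat3 and of WT mice: the ductal or simple type keratins Krt7, Krt8, Krt18, Krt19, Krt20 and Krt23, and the basal or squamous type keratins Krt5, Krt14, Krt17 and Krt6a. Members were taken by symbol, whatever their values, and all 10 were among the 24956 gene symbols counted. Of these, 7 members passed the filter on low counts, which left 12856 genes overall. The tumours were 6 from Alb-Cre+/+ Stat3f/f hosts and 6 from WT hosts. All 12 were grown from PDA.69, 1 cell line derived from the KPC mouse model of pancreatic ductal adenocarcinoma (PDAC) and labelled as low in T cells. In the hosts, Cre under the albumin promoter deletes the floxed Stat3 alleles in hepatocytes, so the deletion is in the host liver and the implanted cells carry whatever alleles PDA.69 has. Host age, host sex, the implantation site and whether each tumour came from its own mouse are not given in the labels, so each p-value is set against the spread of the 12 samples, which may be technical in part. The RNA came off slides of archived tissue (formalin-fixed and embedded in paraffin) and was made into 3′ end libraries.

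Keratins are the intermediate filaments of epithelial cells. Each filament is built from pairs of an acidic type I keratin (here Krt14, Krt17, Krt18, Krt19, Krt20 and Krt23) and a basic or neutral type II keratin (here Krt5, Krt6a, Krt7 and Krt8). Krt8 with Krt18 is the pair of simple epithelia, Krt7 and Krt19 mark duct cells, including those of the pancreas, and Krt5 with Krt14 is the pair of the basal layer of stratified epithelia. Krt6a and Krt17 are induced in stressed or wounded epidermis, and Krt17 and Krt6a are used as markers of basal-like human PDAC, while Krt20 is used as a marker of classical human PDAC and of gut epithelium.

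Library totals ran from 5691707 to 8085609 counts. Levels are given as CPM, counts scaled to a common library total, after TMM scaling for library composition (factors 0.578 to 1.29). Reads come from the 3′ end of each transcript, so counts do not scale with transcript length, and levels of different genes were set side by side on the CPM scale without a length term. The host genotypes were compared by edgeR's quasi-likelihood test, two-sided, with Benjamini-Hochberg adjustment over the 12856 genes and a threshold of 0.05. Stat3 itself stood at 258 ± 34.0 CPM in Alb-Cre Stat3f/f tumours and 257 ± 15.5 CPM in WT tumours (SD, n = 6 each), a log2 fold change of 0.00097 ± 0.10 (SE, adjusted p = 0.996). A deletion limited to hepatocytes of the host leaves the labels unchecked by this value. The 15 genes of an acinar list (digestive enzymes such as Prss2 and Cpa1) took 19.9 ± 12.8% of counts in Alb-Cre Stat3f/f tumours and 5.56 ± 6.25% in WT tumours (ranges 0.612 to 33.7% in Alb-Cre Stat3f/f tumours and 0.472 to 17.4% in WT tumours). Of the 15, Amy2a5 was at 0 in every tumour, and the 14 tested all had a positive fold change, with 0 passing by edgeR or DESeq2 and 4 at an unadjusted p under 0.05. The share was over 15% in Alb-Cre Stat3f/f tumours 1 to 4 and in WT tumour 5, called acinar-rich here. Sex-linked genes also differed between the genotypes. The Y-linked Ddx3y was at 53.0 ± 18.4 CPM in Alb-Cre Stat3f/f tumours and 27.3 ± 3.79 CPM in WT tumours (edgeR adjusted p = 0.0125). Uty and Eif2s3y, also Y-linked, rose too (edgeR adjusted p = 0.0143 and 0.0172), while Kdm5d had a log2 fold change of 0.77 (adjusted p = 0.214). The X-linked Kdm5c fell by 0.37 on the log2 scale (edgeR adjusted p = 0.0447), and Xist, the RNA of the inactive X, had a log2 fold change of -0.39 (adjusted p = 0.153). The part of host sex in the keratin levels was not tested.

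In both host genotypes the ductal keratins were abundant and the basal keratins scarce. Summed over the 6 ductal members, the level was 1583 ± 186 CPM in Alb-Cre Stat3f/f tumours and 1977 ± 161 CPM in WT tumours, while the 4 basal members together gave 6.28 ± 3.73 CPM in Alb-Cre Stat3f/f tumours and 16.4 ± 8.55 CPM in WT tumours. The order of the members by mean level was the same in both genotypes: Krt19, Krt18, Krt7, Krt20, Krt8, Krt23 and Krt14. Within each genotype, the ranges of Krt19, Krt18 and Krt7 overlapped between neighbours in that order, as did those of Krt20 and Krt8, while Krt7 lay above Krt20 and Krt23 above Krt14 without overlap. The ranges of Krt8 and Krt23 overlapped in Alb-Cre Stat3f/f tumours and not in WT tumours. Between host genotypes, Krt7 and Krt14 fell and the other 5 tested members did not pass. Thus 2 of 7 tested members were lower and 0 were higher, beside 0.747% lower and 2.23% higher over all genes tested (2.98% in either direction). At an unadjusted p under 0.05, 3 ductal and 1 basal member were lower and 0 were higher. That looser threshold was passed by 2490 of the 12856 genes tested, in either direction. DESeq2 called 1 ductal and 1 basal member lower and 0 higher, beside 288 genes lower and 618 higher over all genes. Of the 7 fold changes 6 were negative, against 50% over all genes. Some markers of other cell types were higher. Of 8 tested leukocyte markers 3 rose by edgeR and 6 by DESeq2: Ptprc, the CD45 phosphatase, by 0.79 on the log2 scale (adjusted p = 0.0143), Itgam, an integrin of myeloid cells, by 0.78 (0.0200) and Adgre1, a macrophage receptor, by 0.76 (0.0172, all by edgeR). The list summed to 686 to 1187 CPM in Alb-Cre Stat3f/f tumours and 411 to 841 CPM in WT tumours, with Cd79a at 0 in every tumour. Of 8 fibroblast markers, all with a positive fold change, 1 rose by edgeR and 2 by DESeq2. This was Dcn, a matrix proteoglycan, by 0.96 (edgeR adjusted p = 0.0337), and the list summed to 4376 to 7555 CPM in Alb-Cre Stat3f/f tumours and 3279 to 6206 CPM in WT tumours. The part of these cells in the keratin levels was not tested. In bulk tumours, fewer cells of a type and less RNA per cell cannot be told apart.

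**Figure D1:**
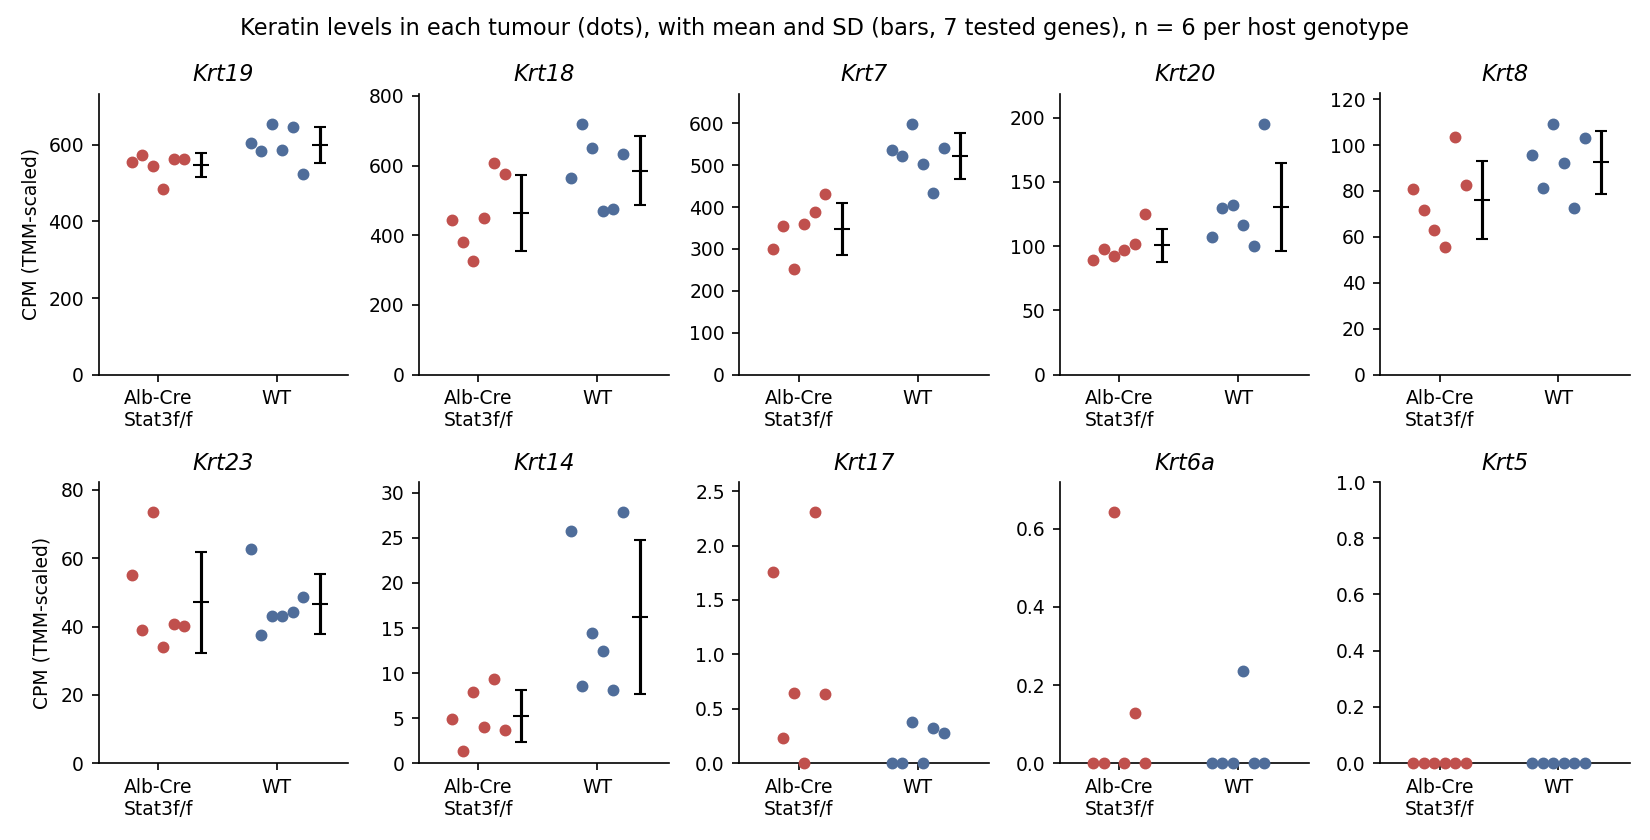
Level of each of the 10 keratins in every tumour (CPM after TMM scaling, vertical axes starting at 0 and scaled per gene), Alb-Cre Stat3f/f tumours left of WT tumours. Dots are tumours, and bars are the mean and SD of the 7 tested genes (n = 6 each). The 2 sets of Krt7 dots do not overlap, 5 of 6 Krt14 dots of Alb-Cre Stat3f/f tumours lie below every WT tumour, and Krt5 has no count in any tumour.

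Krt7 (type II, chr15:101411043-101430313, plus strand, GRCm38) and Krt14 (type I, chr11:100203162-100207548, minus strand) were the members that changed. Krt8 and Krt18 are the filament pair on the chromosome of Krt7. Over the 12 tumours the Pearson r of log2 CPM with Krt7 was 0.688 for Krt8, 0.814 for Krt18 and 0.721 for Krt20 on chromosome 11. In the same order it was 0.422, 0.826 and 0.801 within Alb-Cre Stat3f/f tumours, and 0.900, 0.679 and 0.510 within WT tumours. The RefSeq promoters of Krt7, Krt14, Krt8 and Krt18 (GRCm38.p6, 250 bases before to 50 after the listed start, 5′ to 3′ on the gene's strand) are shown for comparison in sequence. Capitals mark each match, on either strand, to the GC box GGGCGG or the TATA box TATAAA. The AP-1 site TGANTCA was searched as well.
Krt7: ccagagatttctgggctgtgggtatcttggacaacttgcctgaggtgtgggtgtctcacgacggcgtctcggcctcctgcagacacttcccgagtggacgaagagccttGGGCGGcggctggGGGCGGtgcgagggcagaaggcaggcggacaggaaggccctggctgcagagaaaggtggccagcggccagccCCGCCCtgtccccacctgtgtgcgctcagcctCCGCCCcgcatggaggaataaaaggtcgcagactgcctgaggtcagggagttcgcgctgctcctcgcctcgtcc
Krt14: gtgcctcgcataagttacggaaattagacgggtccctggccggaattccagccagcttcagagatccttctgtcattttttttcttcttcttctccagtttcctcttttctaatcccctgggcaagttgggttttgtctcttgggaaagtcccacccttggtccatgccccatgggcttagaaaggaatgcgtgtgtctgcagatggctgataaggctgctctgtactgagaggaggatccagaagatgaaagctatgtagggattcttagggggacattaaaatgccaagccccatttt
Krt8: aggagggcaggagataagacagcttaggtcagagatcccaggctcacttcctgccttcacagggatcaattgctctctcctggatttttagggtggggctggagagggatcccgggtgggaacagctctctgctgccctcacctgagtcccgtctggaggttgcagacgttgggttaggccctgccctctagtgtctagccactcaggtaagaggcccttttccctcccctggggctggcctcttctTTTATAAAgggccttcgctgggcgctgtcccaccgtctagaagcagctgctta
Krt18: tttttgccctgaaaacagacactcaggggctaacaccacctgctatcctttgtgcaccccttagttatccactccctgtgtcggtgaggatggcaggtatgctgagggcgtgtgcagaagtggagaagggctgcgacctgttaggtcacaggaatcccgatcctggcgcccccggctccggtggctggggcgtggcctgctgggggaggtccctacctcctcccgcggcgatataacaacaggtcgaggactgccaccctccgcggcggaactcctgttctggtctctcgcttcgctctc
The Krt7 window holds 4 GC boxes, starting at -141, -128, -56 and -24 from the listed start (position 0), and 35.7% of 32851 promoters of this length hold at least 1. The Krt8 window holds TATAAA on both strands, overlapping, at -3 and -1, and 13.6% of promoters hold it. The Krt14 and Krt18 windows hold no match to GGGCGG or TATAAA, and TGANTCA (in 7.81% of promoters) is in none of the 4 windows. The listed starts of Krt7 and Krt14 lie 1360 and 1518 bases inside the GENCODE M21 gene, so these windows may not hold the start used in the tumours. Those of Krt8 and Krt18 lie 140 and 36 bases inside, so motif positions there hold for the listed start only. Promoters were listed for 7 of the 10 members.

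Krt7, the type II keratin of ducts and glands, was measured at 299.9, 356, 253, 360, 387 and 430 CPM in Alb-Cre Stat3f/f tumours 1 to 6, against 536, 522, 599, 502, 433 and 542 CPM in WT tumours 1 to 6. Every Alb-Cre Stat3f/f tumour was below every WT tumour, which held in that direction for 0.646% of all genes tested, and the lowest WT tumour was the acinar-rich WT tumour 5. The means were 348 ± 63.0 CPM in Alb-Cre Stat3f/f tumours and 522 ± 54.4 CPM in WT tumours (SD, n = 6 each), a log2 fold change of -0.59 ± 0.12 (SE) and a fold of 0.666. The adjusted p of edgeR's quasi-likelihood test was 0.0113, and 0.00702 to 0.0385 with any 1 tumour left out. With an acinar score as a covariate the log2 fold change was -0.49 (adjusted p = 0.0464 by the same test). Without the 5 acinar-rich tumours it was -0.40 and the call was lost (adjusted p = 0.230, edgeR, 2 Alb-Cre Stat3f/f tumours left against 5 WT tumours). Since every Alb-Cre Stat3f/f tumour lay below every WT tumour, the groups could not overlap within either kind of tumour. The split by acinar share is thus no separate support. Among acinar-poor tumours Krt7 was at 387 to 430 CPM in 2 Alb-Cre Stat3f/f tumours and 502 to 599 CPM in 5 WT tumours, and among acinar-rich ones at 253 to 360 CPM in 4 Alb-Cre Stat3f/f tumours and 433 CPM in the WT tumour.

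Krt8 and Krt18, the filament pair of simple epithelia, lie next to each other on chromosome 15. Krt18 was at 443, 381, 327, 449, 607 and 577 CPM in Alb-Cre Stat3f/f tumours 1 to 6, against 565, 721, 650, 470, 477 and 634 CPM in WT tumours 1 to 6. The 4 acinar-rich Alb-Cre Stat3f/f tumours were the lowest of all 12, and tumours 5 and 6 lay within the WT range. The log2 fold change was -0.34 ± 0.15 (464 ± 109 against 586 ± 100 CPM, Alb-Cre Stat3f/f against WT; adjusted p = 0.216, edgeR). Krt8 was at 80.8, 71.5, 63.0, 55.7, 104 and 82.5 CPM in Alb-Cre Stat3f/f tumours and 95.8, 81.5, 109, 92.2, 72.4 and 103 CPM in WT tumours. These ranges overlapped, with 3 Alb-Cre Stat3f/f tumours below every WT tumour, and the log2 fold change was -0.28 ± 0.14 (adjusted p = 0.278, edgeR). Krt18 exceeded its partner in every tumour, 6.15 ± 1.14 times in Alb-Cre Stat3f/f and 6.42 ± 1.28 times in WT tumours. Without the acinar-rich tumours the log2 fold changes were -0.04 for Krt18 and -0.05 for Krt8.

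Krt19, the smallest type I keratin and a standard marker of pancreatic duct cells, was the most abundant member. It was at 556, 574, 546, 486, 564 and 562 CPM in Alb-Cre Stat3f/f tumours 1 to 6 and 604, 585, 656, 585, 646 and 524 CPM in WT tumours 1 to 6. All but 1 of the Alb-Cre Stat3f/f tumours lay within the WT range. The means were 548 ± 31.9 CPM in Alb-Cre Stat3f/f tumours and 600 ± 47.9 CPM in WT tumours, a log2 fold change of -0.13 ± 0.09 (adjusted p = 0.458, edgeR). It was also the steadiest member: its coefficient of variation over the 12 tumours was 0.0825, against 0.201 to 0.252 for the other ductal members and 0.782 for Krt14.

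Krt20, a keratin of gut epithelium, was at 88.9, 98.2, 92.4, 97.3, 102 and 125 CPM in Alb-Cre Stat3f/f tumours 1 to 6 and 107, 130, 132, 116, 100.2 and 195 CPM in WT tumours 1 to 6. The 4 acinar-rich Alb-Cre Stat3f/f tumours lay below every WT tumour and the other 2 within the WT range. Its log2 fold change was -0.37 ± 0.14 (101 ± 12.7 against 130 ± 34.3 CPM, Alb-Cre Stat3f/f against WT; adjusted p = 0.148, edgeR). Krt23, a type I keratin of the same chromosome 11 cluster, was at 55.1, 39.0, 73.5, 34.1, 40.8 and 40.1 CPM in Alb-Cre Stat3f/f tumours and 62.8, 37.5, 43.2, 43.1, 44.1 and 48.7 CPM in WT tumours. The genotypes overlapped across almost the whole range, and the log2 fold change was 0.01 ± 0.17 (adjusted p = 0.979, edgeR).

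Krt14, the type I keratin of basal cells, held nearly all counts of the basal members. It was at 4.93, 1.40, 7.93, 4.06, 9.36 and 3.68 CPM in Alb-Cre Stat3f/f tumours 1 to 6, against 25.8, 8.62, 14.5, 12.4, 8.17 and 27.9 CPM in WT tumours 1 to 6. Of the Alb-Cre Stat3f/f tumours 5 lay below every WT tumour, and tumour 5 lay above WT tumours 2 and 5. The sums were 200 counts in Alb-Cre Stat3f/f tumours and 762 in WT tumours. The means were 5.23 ± 2.93 CPM in Alb-Cre Stat3f/f tumours and 16.2 ± 8.57 CPM in WT tumours, a log2 fold change of -1.62 ± 0.41 and a fold of 0.326 (adjusted p = 0.0473, edgeR). The call was close to the threshold. It passed with 3 of the 12 tumours left out (Alb-Cre Stat3f/f 5, WT 2 or WT 5) and did not with any other 1 left out (edgeR adjusted p 0.0208 to 0.109 in all). It was also lost without the low count filter (adjusted p = 0.0798), with the acinar score as a covariate (log2 fold change -1.34, adjusted p = 0.136) and without the acinar-rich tumours (-1.45, adjusted p = 0.385), all by edgeR. Among acinar-poor tumours Krt14 was at 3.68 to 9.36 CPM in 2 Alb-Cre Stat3f/f tumours and 8.62 to 27.9 CPM in 5 WT tumours.

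**Figure D2:**
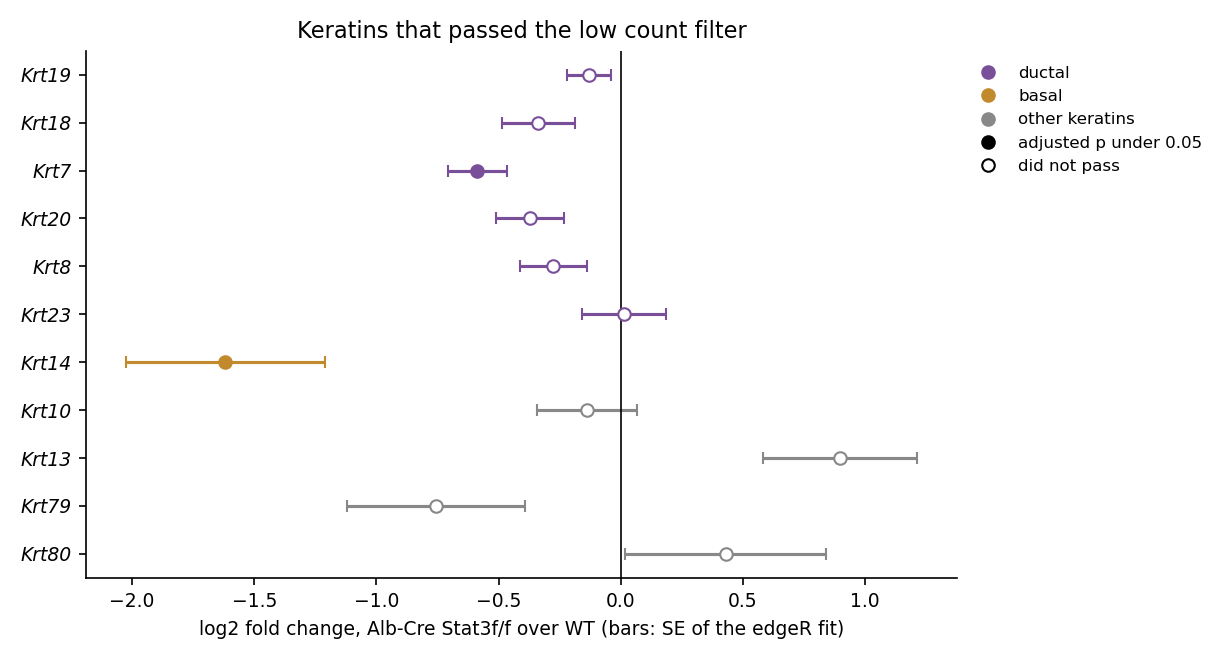
Log2 fold change (Alb-Cre Stat3f/f over WT) of the keratins that passed the low count filter, with the SE of the edgeR fit as bars. Filled dots passed at an adjusted p under 0.05 (Krt7 and Krt14), open dots did not, and colours give ductal, basal and other keratins. Krt14 has the most negative value and the widest bar among the members, and Krt23 lies at 0.01.

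The other basal members were near or at 0. Krt5, the type II partner of Krt14, had 0 of 81622059 counts over the 12 tumours, which allows a level of up to 0.0362 CPM over all libraries (3 counts). Krt6a, a stress keratin, had 4 counts in Alb-Cre Stat3f/f tumours and 2 in WT tumours. Krt17, the keratin of wounded epidermis, had 10, 1, 3, 0, 18 and 5 counts in Alb-Cre Stat3f/f tumours 1 to 6 and 0, 0, 3, 0, 2 and 2 in WT tumours 1 to 6. Alb-Cre Stat3f/f tumours 1 and 5 held most of them. The sums of 37 counts in Alb-Cre Stat3f/f tumours and 7 in WT tumours gave a ratio of 6.56 (Alb-Cre Stat3f/f over WT, 95% exact binomial interval 2.89 to 17.4, counting error only), and 4.27 (1.72 to 12.02) without Alb-Cre Stat3f/f tumour 5. Krt17 did not pass the filter, and a fit without one gave a log2 fold change of 2.44 with an adjusted p of 0.216 (edgeR). Skin also makes these keratins. Of 12 skin keratinocyte markers 3 were tested and 0 passed (edgeR and DESeq2, 2 lower at an unadjusted p under 0.05), with a summed level of 26.8 to 31.5 CPM in Alb-Cre Stat3f/f tumours and 28.7 to 49.8 CPM in WT tumours, most of it Ivl and Krt10. Krt1, the keratin of the upper epidermis, had 1 count in each genotype, and Krt77, Dsg1a, Dsc1 and Calml3 had 0. The 10 hair follicle markers summed to 0.857 to 2.47 CPM in Alb-Cre Stat3f/f and 1.37 to 3.43 CPM in WT tumours. Trp63, a transcription factor of basal cells, had 0 counts in Alb-Cre Stat3f/f tumours and 3 in WT tumours. All 10 members had distinct 3′ ends: 0 of the 50-base stretches in the last 300 bases of their transcripts occurred in a transcript of another gene.

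Ratios between the members were also set side by side by genotype. The type I to type II ratio over the 10 keratins was 2.79 ± 0.31 in Alb-Cre Stat3f/f tumours and 2.25 ± 0.19 in WT tumours. The 6 Alb-Cre Stat3f/f values did not overlap with the WT values, in a ratio whose type II side is mostly Krt7 (81.9 ± 3.19% in Alb-Cre Stat3f/f tumours and 85.0 ± 0.92% in WT tumours). The lowest Alb-Cre Stat3f/f value was 2.55 and the highest WT value 2.52, in the acinar-rich WT tumour. Krt7 made up 21.8 ± 2.34% of the 10 keratins' CPM in Alb-Cre Stat3f/f tumours and 26.2 ± 1.27% in WT tumours, and Krt19 34.8 ± 3.802% in Alb-Cre Stat3f/f tumours and 30.3 ± 3.74% in WT tumours. Krt7 per Krt19 was 0.636 ± 0.118 in Alb-Cre Stat3f/f tumours and 0.876 ± 0.118 in WT tumours, with 3 of 6 below every WT tumour. On the log2 scale the ductal sum exceeded the basal sum by 8.07 ± 0.90 in Alb-Cre Stat3f/f tumours and 7.02 ± 0.70 in WT tumours, a difference of 1.06, and 3 of the 6 Alb-Cre Stat3f/f values lay above the WT range. That value follows Krt14, which carries the basal sum, and it turns to -0.23 when each member's log2 CPM weighs equally, since Krt5, Krt17 and Krt6a then count as much as Krt14. These ratios use the members whose calls are described above and carry no test of their own.

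**Figure D3:**
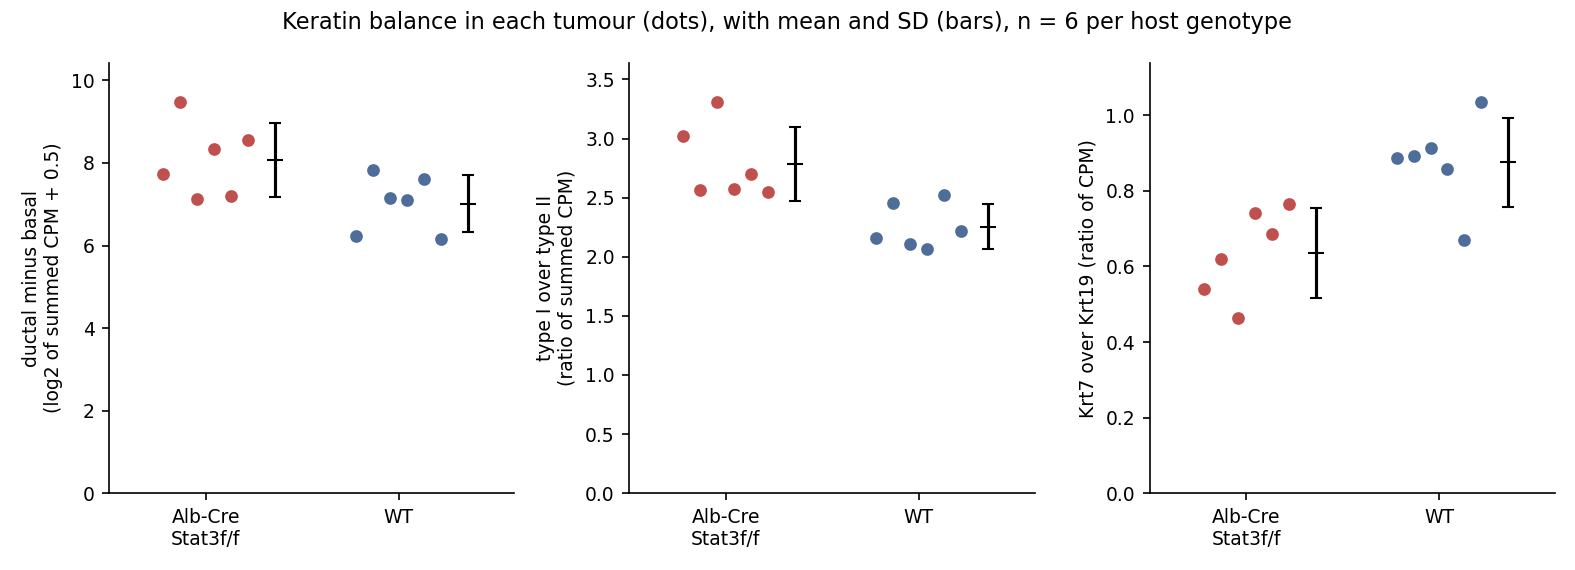
Keratin balance in each tumour (dots, with mean and SD, n = 6 each), Alb-Cre Stat3f/f left of WT, with every axis starting at 0: the ductal minus basal log2 difference of summed CPM, the type I over type II ratio and the Krt7 over Krt19 ratio. The ratio of type I to type II keratins is 2.79 in Alb-Cre Stat3f/f tumours against 2.25 in WT tumours and does not overlap.

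Across the 12 tumours, both genotypes pooled, several ductal members moved with the acinar share. The permutations ignored genotype, so the adjusted p-values do not separate the difference between genotypes from variation within them. Krt18 had Pearson r = -0.891 (Spearman rho -0.797; permutation adjusted p = 0.00560 and 0.0159 over 28 relations computed). It was -0.969 within the Alb-Cre Stat3f/f tumours and -0.540 within the WT tumours, and -0.757 without the 2 tumours farthest from the median share. For Krt7 r was -0.814 (rho -0.734; permutation adjusted p = 0.00994 and 0.0190), -0.681 within Alb-Cre Stat3f/f and -0.725 within WT tumours, and -0.715 without the 2 farthest tumours. For Krt14 r was -0.674 (rho -0.762; permutation adjusted p = 0.0445 and 0.0189), and within genotypes it was nearer to 0, at -0.434 in Alb-Cre Stat3f/f tumours and -0.408 in WT tumours. Krt8 and Krt20, which were not called between genotypes, also passed. Krt8 had r = -0.817 (rho -0.839; permutation adjusted p = 0.00994 and 0.0109). Krt20 had r = -0.665 (rho -0.783; permutation adjusted p = 0.0441 and 0.0159). For Krt19 r was -0.255 and did not pass (rho -0.224; permutation adjusted p = 0.515 and 0.591). For Krt23 r was 0.263 and did not pass (rho 0.056; permutation adjusted p = 0.515 and 0.900). Among the members, Krt7 and Krt18 had r = 0.814 (rho 0.818; permutation adjusted p = 0.00994 and 0.0129) and 0.681 without the 2 farthest tumours. In all, 10 of the 28 relations had a Pearson adjusted p under 0.05. Within Alb-Cre Stat3f/f and WT tumours, the exact permutation p (unadjusted) with the acinar share was 0.00833 and 0.256 for Krt18. It was 0.135 and 0.149 for Krt7, and 0.400 and 0.463 for Krt14. For Krt8 r was -0.776 and -0.680 (exact permutation p = 0.0736 and 0.118), and for Krt20 -0.523 and -0.693 (0.307 and 0.165). Whether acinar tissue accounts for the lower keratin levels was not tested.

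**Figure D4:**
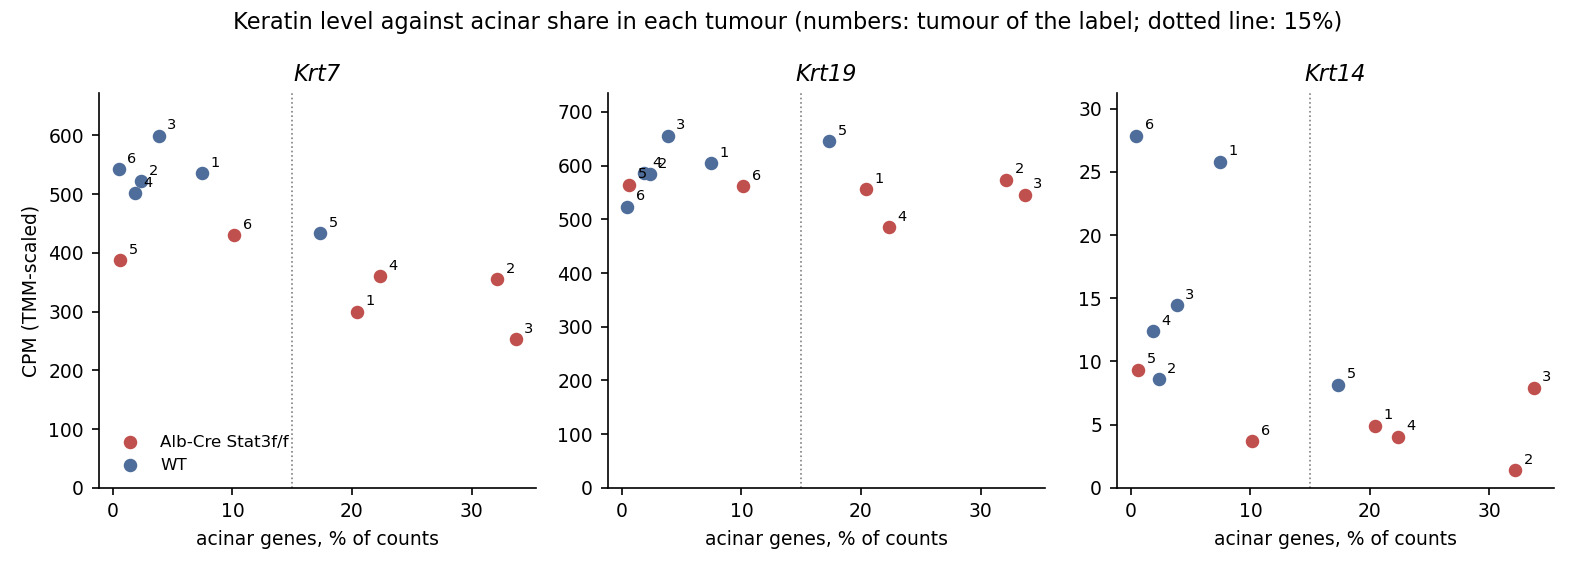
Levels of Krt7, Krt19 and Krt14 (CPM, vertical axes starting at 0) against the acinar share of counts in each tumour (numbers give the tumour of the label, the dotted line 15%), Alb-Cre Stat3f/f listed before WT. The acinar-rich tumours hold the lowest Krt7 values of each genotype, while the Krt19 dots stay between 486 and 656 CPM.

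Genes of the desmosome, which holds keratin filaments to the cell surface, were read for the whole list. Of 14 desmosome and plakin genes 12 were tested, 0 passed, and the median log2 fold change was -0.28, against -0.00077 over all genes. At an unadjusted p under 0.05, 5 of them were lower and DESeq2 called 1 lower. Those with the smallest p were Pkp1, a plaque protein of desmosomes, at -0.73 (adjusted p = 0.0812), and Evpl, a plakin of the cell envelope, at -0.80 (adjusted p = 0.108, both by edgeR).

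Other filament genes and markers of the epithelium were read for comparison. None of the 7 other intermediate filament genes passed the edgeR threshold, with 1 higher at an unadjusted p under 0.05 and 0 by DESeq2, and Vim, the filament of mesenchymal cells, was at 1581 ± 137 CPM in Alb-Cre Stat3f/f and 1506 ± 236 CPM in WT tumours. Of 16 ductal and epithelial identity genes 2 fell: Cftr, the chloride channel of duct cells, by a log2 fold change of -1.02 ± 0.15 (adjusted p = 0.000847), and Sox9, a duct transcription factor, by -0.49 ± 0.10 (adjusted p = 0.0103, both by edgeR, 6 of 6 tumours below every WT tumour). Both calls held with the acinar score as a covariate (edgeR adjusted p = 0.00232 for Cftr and 0.0249 for Sox9). Without the acinar-rich tumours the log2 fold changes were -0.97 for Cftr and -0.47 for Sox9 and the calls were lost (edgeR adjusted p = 0.0853 and 0.160), with 2 Alb-Cre Stat3f/f tumours left against 5 WT tumours. At an unadjusted p under 0.05, 7 genes of this list were lower and 3 higher, and DESeq2 called 6 lower and 0 higher. The 3 higher at that unadjusted threshold were Grhl2 at 0.82, Esrp1 at 0.77 and Onecut1 at 0.70 (edgeR adjusted p = 0.174, 0.108 and 0.174). In all, 5 of the 16 fold changes were positive and 11 negative. Cdh1, the epithelial cadherin, was at 755 ± 95.4 CPM in Alb-Cre Stat3f/f tumours and 947 ± 114 CPM in WT tumours (log2 fold change -0.33, adjusted p = 0.110, edgeR). Of 27 basal-like and squamous genes 12 were tested, 11 had a negative fold change and 3 fell, namely Krt7, Krt14 and Sprr1a, a cornified envelope protein (-0.77 ± 0.16, edgeR adjusted p = 0.0162). Krt7 and Krt14 are the members already called above, and Krt7 also stands in the ductal list. Outside the members, Sprr1a alone fell in this list by the main edgeR fit. At an unadjusted p under 0.05, 6 genes of the list were lower and 1 higher, members included. DESeq2 called 5 of the list lower and 0 higher, and edgeR with the acinar covariate called 2 lower and 0 higher. The call of Sprr1a was lost without the acinar-rich tumours, at a log2 fold change of -0.63 (adjusted p = 0.496), and with the acinar covariate, at -0.69 (adjusted p = 0.0814, both by edgeR). Of 21 classical PDAC genes 13 were tested, 9 had a negative fold change (median log2 fold change -0.29), and 3 were higher and 3 lower at an unadjusted p under 0.05. DESeq2 called 2 of them higher and 1 lower, and by edgeR 1 rose: St6galnac1, a sialyltransferase, with 196 counts in Alb-Cre Stat3f/f tumours and 3 in WT tumours (edgeR adjusted p = 2.36e-05). Mesothelium makes Krt7, Krt8, Krt18 and Krt19 as well, and of its 8 markers 5 were tested and 0 passed by edgeR (1 lower by DESeq2 and at an unadjusted p under 0.05). They summed to 90.7 to 160 CPM in Alb-Cre Stat3f/f and 110 to 267 CPM in WT tumours, most of it Msln, which carcinoma cells can also make, and Msln alone had a negative log2 fold change (-0.63). The other 4 tested were positive, from 0.06 for Nkain4 to 1.23 for Lrrn4, and the median of the 5 was 0.62. Upk3b, which was not tested, had 15 counts in Alb-Cre Stat3f/f tumours and 13 in WT tumours. The 10 gut markers, shown for Krt20, summed to 28.1 to 79.5 CPM in Alb-Cre Stat3f/f and 62.3 to 106 CPM in WT tumours, with 0 passing by edgeR and 1 lower by DESeq2 and at an unadjusted p under 0.05. The part of these cell types in the keratin levels was not tested.

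Of 45 other keratins 4 passed the low count filter and 0 of these changed (edgeR), with 1 at an unadjusted p under 0.05 and 0 by DESeq2. Krt13, a keratin of internal stratified epithelia, was at 11.5 ± 6.63 CPM in Alb-Cre Stat3f/f and 6.14 ± 1.76 CPM in WT tumours (log2 fold change 0.90 ± 0.32, adjusted p = 0.122, edgeR). Tumours 3 and 6 of the Alb-Cre Stat3f/f hosts held the highest values, 21.6 and 18.0 CPM. Krt79, Krt80 and Krt10 had log2 fold changes of -0.76, 0.43 and -0.14 (adjusted p 0.259, 0.610 and 0.760, edgeR).

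The genes whose log2 CPM was most like that of Krt19 over the 12 tumours, among 10298 compared, were Haus8 (r = 0.935), Pkig (0.915), Smox (0.842), Nxn (0.832) and Stom (0.832). For Krt14 they were Runx2 (0.946), Cpe (0.914), Dync1li2 (0.905), Lrrc15 (0.888) and Dhh (0.884). These values pool tumours of both genotypes and of differing acinar share, and carry no test. Within a genotype, r was 0.759 to 0.992 for the 5 genes of Krt19 and 0.635 to 0.961 for the 5 of Krt14. The type I members of the chromosome 11 cluster lie 624.1 to 1446.9 kb from Stat3.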

How the data were processed

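The members and lists were chosen with earlier results of these data known. The deposited values are the authors' raw counts, 1 whole number per symbol and library, not normalised. Per the labels' protocols, RNA came from scraped FFPE slides and QuantSeq 3′ FWD libraries, and per the submitters' processing notes reads were aligned with STAR to mm10. The sources used here give no counting tool, annotation or strand setting. Of 24982 entries, 26 named by a date number were left out (0.0690 to 0.166% of counts). Library totals of 5691707 to 8085609 counts set the precision. Groups follow the genotype labels, with no batch, sex or date given (sex-linked genes differed between them). The description numbers follow the genotype (all Alb-Cre Stat3f/f tumours come before all WT tumours), so any order they mark cannot be told apart from it. Fits used R 4.3.3, edgeR 4.0.16 (filterByExpr, minimum count 10 and total 15, TMM, robust quasi-likelihood) and DESeq2 1.42.0, tested on simulated data. Correlations used 100000 permutations in SciPy 1.17.1. Positions come from GENCODE M21 and promoters from RefSeq. The acinar score is the mean log2 CPM of the acinar list. Genes of a list were named by the smallest p or by passing the threshold, and likeness needed a mean of 5 CPM. Trp63, Krt1, Vim, Cdh1, Grhl2, Esrp1, Onecut1, Nkain4, Lrrn4 and the sex-linked genes were named after their values were seen. Of the genes so named, 1 is not reported here.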

Additional observations from a re-analysis of the deposited data

Results flagged for a closer look

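Of 36 groups of 6 tumours checked, 3 held a tumour far from the others, where chance flags about 1 in 20 groups. Krt19 was lowest in Alb-Cre Stat3f/f tumour 4, at 486 CPM, with the next value at 546 CPM. Krt20 was highest in Alb-Cre Stat3f/f tumour 6, at 125 CPM (next 102 CPM), and among WT tumours in tumour 6, at 195 CPM (next 132 CPM). Tumour 6 of the WT hosts was also the highest for Krt14, at 27.9 CPM.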

How the results depend on the processing

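Krt7 kept its direction in 21 other settings, with log2 fold changes of -0.67 to -0.40, and its call in all but the fit without the acinar-rich tumours. Krt14 kept its direction in all 21 and its call in 8. The number of members called lower was 1 without the low count filter, 1 with a replicate block, 1 with the acinar covariate, 0 without the acinar-rich tumours and 1 to 2 with any 1 tumour left out. Over all genes, DESeq2 called 618 higher and 288 lower, the replicate block 145 and 44, the acinar covariate 146 and 38, the fit without the acinar-rich tumours 83 and 14, and leaving out 1 tumour 141 to 471 and 37 to 222. The labels state no pairing by replicate number. Same-numbered tumours correlated at -0.51 to 0.13, and 1 of 6 correlated best with its own number. With 6 pairs of tumours that also vary in acinar share, this check cannot exclude a pairing. With the block Krt7 had an edgeR adjusted p of 0.0472 and Krt14 of 0.0650. Krt23 changed sign to -0.018 with the block, -0.10 with the acinar covariate, -0.22 without the acinar-rich tumours and -0.070 with an epithelial score (Epcam, Cdh1, Cldn7, Grhl2 and Esrp1) as covariate, a setting chosen after seeing the data, and ranged from -0.16 to 0.12 with 1 tumour left out. With that epithelial covariate Krt7 and Krt14 stayed called (edgeR adjusted p 0.0149 and 0.0242). The score was 5.68 ± 0.16 in Alb-Cre Stat3f/f tumours and 5.50 ± 0.42 in WT tumours (SD). Its genes had fold changes in both directions, so this fit could not test whether less epithelium lowered the keratins. The ductal over basal difference was 0.78 to 1.25 with 1 tumour left out and -0.23 with members weighted equally. The cause was not tested. Depth limits Krt5 and Krt6a, with 0 and 6 counts in all. For Krt17 the counting interval excluded 1, and its counts varied widely between tumours of 1 genotype.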

Other observations

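Krt4, the type II partner of Krt13 in internal stratified epithelia, was chosen after its values were seen. It had 2, 0, 0, 0, 3 and 4 counts in Alb-Cre Stat3f/f tumours 1 to 6 and 16, 12, 4, 14, 8 and 1 counts in WT tumours 1 to 6. The ratio of summed levels was 0.203 (Alb-Cre Stat3f/f over WT, 95% exact binomial interval 0.0883 to 0.414, counting error only), and 0.232 without the highest WT tumour. Its counts were under the filter, and a fit with no filter gave a log2 fold change of -2.29 ± 0.83 with an adjusted p of 0.152 (edgeR).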
